A study of Mus musculus with 8 samples.

Results

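*Tlr1*, *Tlr2*, *Tlr4*, *Tlr5* and *Tlr6*, the genes of the Toll-like receptors (TLRs) that sit on the cell surface, were followed by quantitative PCR in mouse spleen. They were taken by name and are 5 of the 84 pathway genes on the plate. The 6 groups were 3 strains by 2 treatments: spleens labelled TLR7-/- with R848 and with Mock, spleens labelled IFNAR-/- with R848 and with Mock, and C57BL/6 wild-type spleens with R848 and with Mock. R848 (resiquimod), a small-molecule agonist of TLR7, was dosed at 1 mg per kg per day over 7 days, and Mock animals received PBS for as long. The TLR7-/- label stands for loss of the receptor that R848 acts on, and the IFNAR-/- label for loss of the type I interferon receptor. How either line was made, its background and the age of the animals are not given in the sources used here. Each of the 8 samples was a pool of RNA from 3 mice. The deficient strains had 1 sample per treatment, whereas C57BL/6 had 2 experiments per treatment, of which the values used here are the means.

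Surface TLRs detect molecules of the outer layers of microbes. TLR2 pairs with TLR1 to bind triacylated lipoproteins and with TLR6 to bind diacylated ones. TLR4 binds lipopolysaccharide (LPS) together with MD-2, which *Ly96* encodes, and takes it over from CD14, and TLR5 binds flagellin. All signal through MyD88, which TIRAP brings to TLR2 and TLR4, and TLR4 signals in addition through TRAM and TRIF, encoded by *Ticam2* and *Ticam1*. In the spleen these receptors are known from macrophages, dendritic cells and neutrophils, and several of them from mouse B cells.

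The RefSeq promoter table (GRCm38.p6) held windows of 300 bases around annotated transcript starts for 4 of the 5 genes. A window runs from 250 bases before the start to 50 bases from it. Of the 6 windows, 3 are printed, 1 for each gene with matches to motifs of factors that act in TLR and interferon signalling or in myeloid cells. *Tlr1* and *Tlr6* each have a further window with matches, which is described below but not printed. All 3 genes lie on the minus strand, and each sequence is written 5′ to 3′ along the gene with the matching bases in capitals.
Tlr1, chr5:64933509-64933808: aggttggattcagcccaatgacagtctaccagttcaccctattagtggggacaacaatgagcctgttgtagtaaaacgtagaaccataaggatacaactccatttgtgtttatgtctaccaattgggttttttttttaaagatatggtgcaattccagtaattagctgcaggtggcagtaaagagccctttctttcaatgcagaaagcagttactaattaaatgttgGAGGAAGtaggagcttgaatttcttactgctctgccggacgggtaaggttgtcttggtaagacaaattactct
Tlr2, chr3:83841559-83841858: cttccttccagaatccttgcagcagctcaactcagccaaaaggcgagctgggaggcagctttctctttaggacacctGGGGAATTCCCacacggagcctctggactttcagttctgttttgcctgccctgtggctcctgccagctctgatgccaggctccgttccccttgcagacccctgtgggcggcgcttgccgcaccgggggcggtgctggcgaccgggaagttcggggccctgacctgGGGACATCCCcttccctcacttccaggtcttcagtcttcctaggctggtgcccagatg
Tlr6, chr5:64959117-64959416: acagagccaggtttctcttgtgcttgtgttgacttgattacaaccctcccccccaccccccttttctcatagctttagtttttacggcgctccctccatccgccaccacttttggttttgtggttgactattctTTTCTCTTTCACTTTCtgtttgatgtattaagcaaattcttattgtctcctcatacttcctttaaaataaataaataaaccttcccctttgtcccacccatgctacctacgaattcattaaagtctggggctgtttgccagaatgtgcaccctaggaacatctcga

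The motifs, read on both strands, were the interferon-stimulated response element core (GAAA, any 2 bases and GAAA again), the gamma-activated site TTCNNNGAA, the AP-1 site TGANTCA, the ETS core GAGGAAG of the PU.1 type, and the NF-kB consensus. They occurred in 3.44%, 8.30%, 7.81%, 13.6% and 8.46% of all 32851 windows of the table. The *Tlr2* window held 3 NF-kB matches, 2 of which overlap 173 to 163 bases before the start, and the other ran across the start from 8 bases before it. The printed *Tlr6* window held 2 overlapping interferon-stimulated response element cores on the opposite strand, between 116 and 101 bases before the start. The printed *Tlr1* window held the ETS core 23 to 17 bases before the start. A further start of *Tlr1* (chr5:64932650-64932949) had 1 gamma-activated site and a further start of *Tlr6* (chr5:64959999-64960298) had 2, and neither held any of the other motifs. The *Tlr5* window (chr1:182954538-182954837) held none of the 5 motifs, which says only that these letters are not in it. *Tlr4*, on chromosome 4, was not among the windows used here. *Tlr1* and *Tlr6* are neighbours on chromosome 5 with 0 annotated genes between them. A match describes the letters of a window and shows no binding.

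Levels are delta-Ct values, the cycle at which a gene crossed the threshold minus the mean cycle of *Hprt1*, *Hsp90ab1* and *Gapdh*. Lower delta-Ct is a higher level, and 1 cycle is 2-fold. A response is the log2 difference between R848 and Mock, positive where R848 was higher. Cycles beyond 35 had been set to 35, which gives every column a highest possible delta-Ct, the cap. It was 12.43 to 15.63 in 5 of the 6 columns. In C57BL/6 with R848 it was at least 16.67, a value that only *Tlr5* had. A gene at the cap was present at that level or less. The reference genes came up at mean cycles of 19.37 with R848 and 19.90 with Mock in TLR7-/-, 20.07 and 22.57 in IFNAR-/-, and at most 18.33 and 21.85 in C57BL/6. Relative to them, the housekeeping genes *Actb* and *Gusb* had R848 responses of 0.07 and 0.47 in TLR7-/-, 1.6 and 1.5 in IFNAR-/-, and 0.63 and 1.88 in C57BL/6, sizes that several receptor responses given here share. No value has a replicate error, so no test was run and each comparison holds for these pools alone. *Tlr7* itself was read in the TLR7-/- columns, at a delta-Ct of 9.33 with R848 and 9.20 with Mock, against 9.47 and 12 in C57BL/6. Where the amplified piece lies relative to the deletion is not stated, and no interferon receptor gene is on the plate, so neither strain label could be checked. The plate holds no defining splenocyte marker such as a B cell or T cell surface antigen, so the tissue label was not checked either. In whole spleen, fewer cells of a type and less RNA per cell cannot be told apart.

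*Tlr4*, the LPS receptor, had the widest spread of responses between strains of the 4 genes read below the cap. In TLR7-/- spleen its delta-Ct was 7.43 with R848 and 7.00 with Mock. In IFNAR-/- spleen it was 6.63 with R848 and 8.73 with Mock. In C57BL/6 spleen it was 4.72 with R848 and 9.30 with Mock. The C57BL/6 columns were thus the highest and the lowest of all 6, with the other 4 between them. Its response was -0.43 in TLR7-/- (1.35-fold lower), 2.10 in IFNAR-/- (4.29-fold higher) and 4.58 in C57BL/6 (23.9-fold higher). Among genes read below the cap in both columns of a strain, that placed it at rank 66 of 78 in TLR7-/-, 25 of 69 in IFNAR-/- and 1 of 77 in C57BL/6, counted from the highest response. The TLR7-/- response minus the C57BL/6 response was -5.01, number 2 from the lowest of 75 such differences, and the IFNAR-/- response minus the C57BL/6 response was -2.48, number 2 from the lowest of 69. Both differences use the same C57BL/6 columns, and over the scalings they ran from -5.40 to -4.62 and from -3.32 to -2.25. The sign of the *Tlr4* response in each strain was the same under 6 scalings, with ranges of -0.60 to -0.30 in TLR7-/-, 0.85 to 2.50 in IFNAR-/- and 4.08 to 5.10 in C57BL/6.

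**Figure D1:**
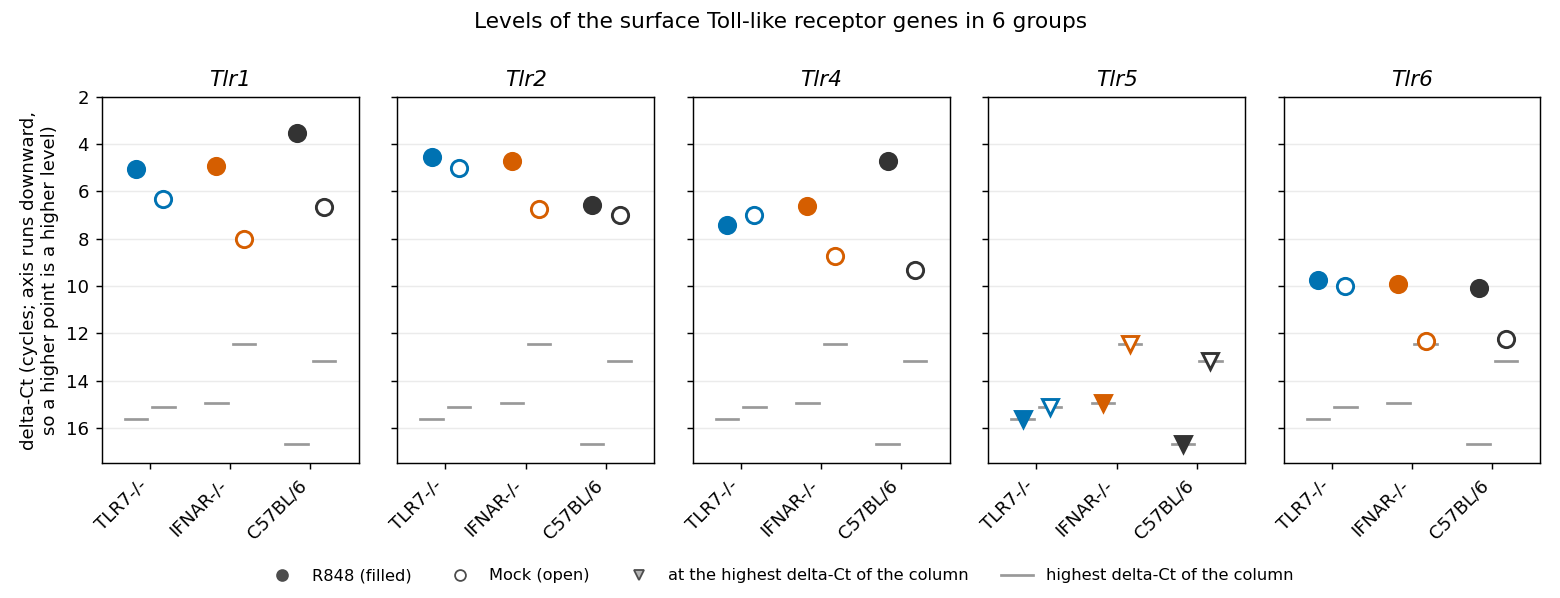
Delta-Ct of each surface TLR gene (vertical axis, cycles, running downward so that a higher point is a higher level) in the 3 strains, with R848 filled and Mock open. Each point is 1 pooled sample, or the mean of 2 experiments in C57BL/6, grey ticks mark the highest delta-Ct of a column, and triangles mark *Tlr5*, which stood at it in all 6 columns, alone in C57BL/6 with R848, where it may be a reading. *Tlr4* spans 4.72 to 9.30 and has both ends in C57BL/6.

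*Tlr2*, the shared partner of TLR1 and TLR6, was lower in C57BL/6 than in TLR7-/- under either treatment. In TLR7-/- spleen its delta-Ct was 4.53 with R848 and 5.00 with Mock. In IFNAR-/- spleen it was 4.73 with R848 and 6.73 with Mock. In C57BL/6 spleen it was 6.57 with R848 and 7.00 with Mock. The 3 highest columns, TLR7-/- with R848, IFNAR-/- with R848 and TLR7-/- with Mock, lay within 0.47 of each other and 1.57 above the next. The responses were 0.47 in TLR7-/- (1.39-fold), 2.00 in IFNAR-/- (4.0-fold) and 0.43 in C57BL/6 (1.35-fold). The C57BL/6 value ranged from -0.07 to 0.95 over the scalings and was below 0 with all 5 housekeeping genes as reference, so it has no settled direction. The IFNAR-/- value fell short of 2-fold, at 0.75, after centring on the median pathway gene. The TLR7-/- and C57BL/6 responses differed by 0.04 (-0.35 to 0.43 over the scalings), while the levels they join lay about 2 cycles apart, at 2.04 with R848 and 2.00 with Mock.

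*Tlr1*, whose product binds triacylated lipoproteins with TLR2, was at least 2-fold higher with R848 in every strain. In TLR7-/- spleen its delta-Ct was 5.03 with R848 and 6.30 with Mock. In IFNAR-/- spleen it was 4.93 with R848 and 8.03 with Mock. In C57BL/6 spleen it was 3.52 with R848 and 6.65 with Mock. All 3 R848 columns had higher levels than all 3 Mock columns, with 1.27 cycles between the groups. The responses were 1.27 in TLR7-/- (2.41-fold), 3.10 in IFNAR-/- (8.57-fold) and 3.13 in C57BL/6 (8.75-fold). *Tlr1* had rank 2 of 78 in TLR7-/-, 10 of 69 in IFNAR-/- and 5 of 77 in C57BL/6. The IFNAR-/- response minus the C57BL/6 response was -0.03 (-0.87 to 0.20 over the scalings), while the log2 levels they join were lower in IFNAR-/- with R848 (-1.41) and with Mock (-1.38). Over the 6 scalings the TLR7-/- response ran from 1.10 to 1.40, the IFNAR-/- response from 1.85 to 3.50 and the C57BL/6 response from 2.63 to 3.65, so it passed 2-fold in each.

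*Tlr6*, the neighbour of *Tlr1* and the partner of TLR2 for diacylated lipoproteins, stood at 2 levels. In TLR7-/- spleen its delta-Ct was 9.73 with R848 and 10.00 with Mock. In IFNAR-/- spleen it was 9.93 with R848 and 12.33 with Mock. In C57BL/6 spleen it was 10.07 with R848 and 12.25 with Mock. The 3 R848 columns and TLR7-/- Mock lay within 0.34 of each other, and the other Mock columns lay 2.18 below them. The responses were 0.27 in TLR7-/- (1.21-fold), 2.40 in IFNAR-/- (5.28-fold) and 2.18 in C57BL/6 (4.53-fold), with ranges over the scalings of 0.10 to 0.40, 1.15 to 2.80 and 1.68 to 2.70. The lower level rests on late readings: *Tlr6* came up 0.1 cycles before the cap in IFNAR-/- Mock and 0.9 before it in C57BL/6 Mock, where a mean of 2 experiments may hold a capped one. Its response is thereby less certain than those of *Tlr1*, *Tlr2* and *Tlr4*, which stayed at least 3.7 cycles from the cap. The IFNAR-/- response minus the C57BL/6 response was 0.22 as deposited and -0.62 after centring on the median pathway gene.

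*Tlr5*, the flagellin receptor, had the highest delta-Ct of every column, and in 5 of the 6 columns that was the cap, shared with other genes. Its delta-Ct was 15.63 with R848 and 15.10 with Mock in TLR7-/-, 14.93 and 12.43 in IFNAR-/-, and 16.67 and 13.15 in C57BL/6. In C57BL/6 with R848 *Tlr5* alone stood at the top value, so 16.67 may be a reading or the cap, and in the other 5 columns the value is an upper limit on the level. The authors' deposited table gives ratios of R848 over Mock of 0.69, 0.18 and 0.09 for *Tlr5* in TLR7-/-, IFNAR-/- and C57BL/6. Those ratios equal the step between the highest delta-Ct values of the R848 and Mock columns. With Mock at the cap, the direction of *Tlr5* is open in all 3 strains.

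**Figure D2:**
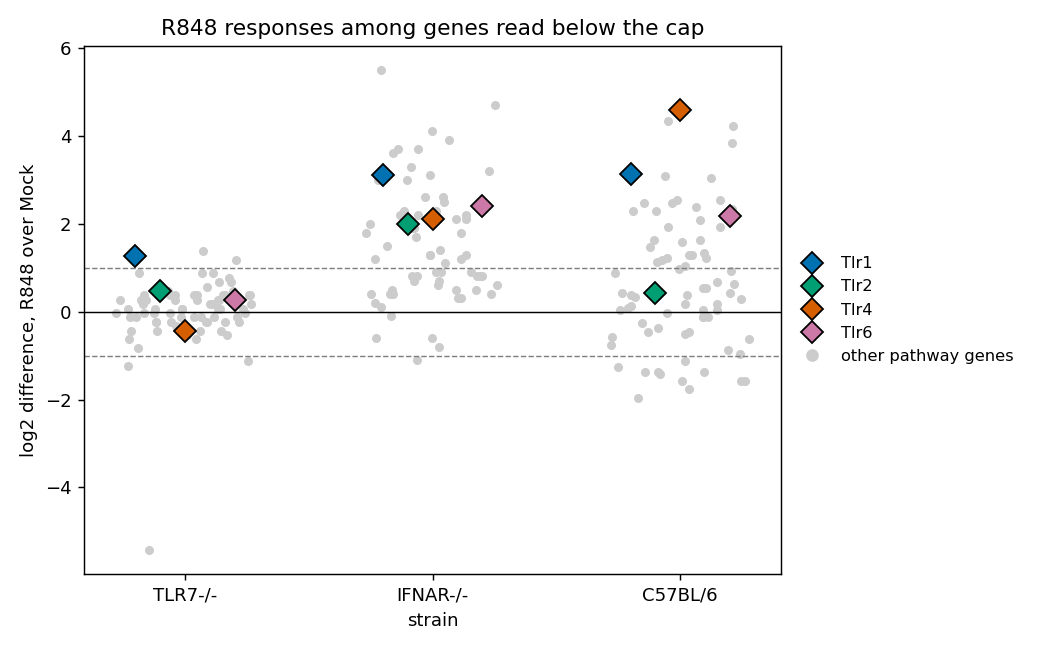
Log2 difference of R848 over Mock (vertical axis) in each strain for the 4 surface TLR genes read below the cap (diamonds) and the other pathway genes read below it (grey points), with dashed lines at 2-fold. In C57BL/6 *Tlr4* is the top point at 4.58 and *Tlr2* lies at 0.43, whereas in IFNAR-/- the 4 genes lie between 2.00 and 3.10.

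By count, 1 of the 5 genes was at least 2-fold higher with R848 in TLR7-/-, where 4.76% of the 84 pathway genes were. In IFNAR-/- it was 4 of 5, beside 53.6% of the plate, and in C57BL/6 it was 3 of 5, beside 38.1%. None of the 5 was at least 2-fold lower in any strain, beside 3.57% in TLR7-/-, 2.38% in IFNAR-/- and 13.1% in C57BL/6, and *Tlr5* was open throughout, as were 5.95% of the plate in TLR7-/-, 10.7% in IFNAR-/- and 5.95% in C57BL/6. The median response of the 5 was 0.27 in TLR7-/-, 2.10 in IFNAR-/- and 2.18 in C57BL/6, against 0.07, 1.25 and 0.41 for all pathway genes. Without *Tlr5* the medians were 0.37, 2.25 and 2.66. Whether a gene counted as 2-fold higher in IFNAR-/- depended on the scaling, because the median pathway gene was itself 1.25 higher there. Centred on that gene, *Tlr1* and *Tlr6* were 2-fold higher in IFNAR-/- and *Tlr2* and *Tlr4* were not. That median counts open genes at their deposited values and was 1.5 without them. Against 1.5, *Tlr6* would also fall short of 2-fold. The endosomal receptors *Tlr3*, *Tlr7*, *Tlr8* and *Tlr9*, which detect nucleic acids, had 0 of 4 genes 2-fold higher in TLR7-/-, 4 in IFNAR-/- and 3 in C57BL/6, with medians of 0.07, 2.40 and 1.78.

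**Figure D3:**
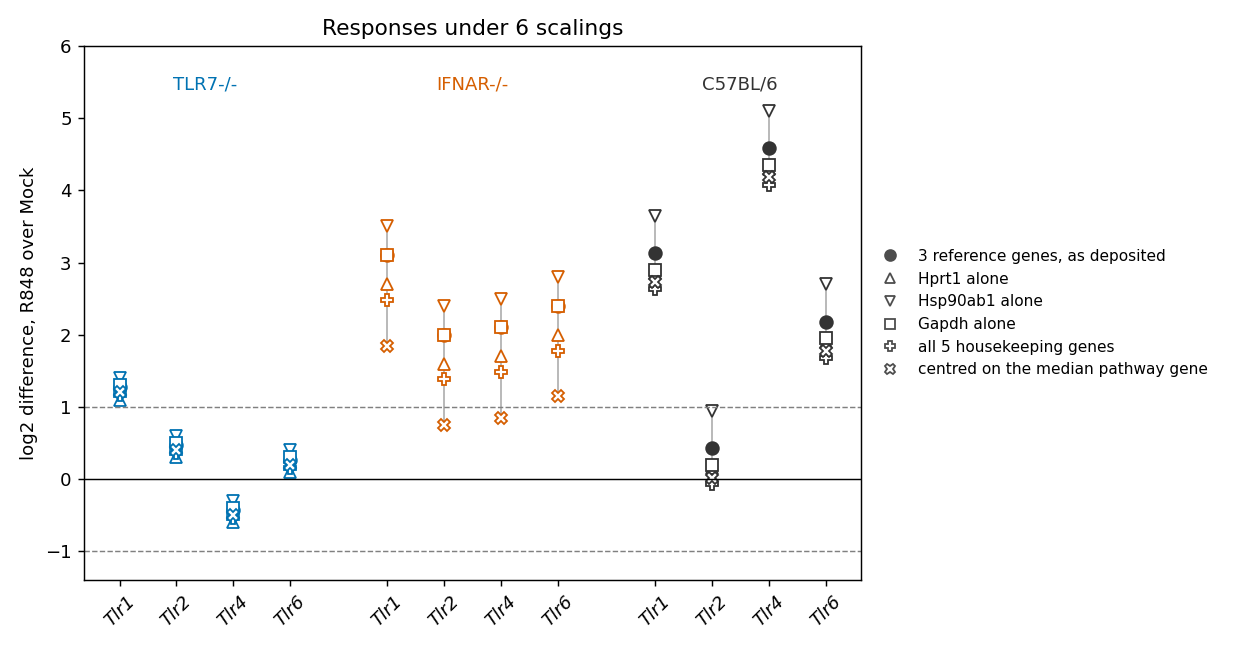
Log2 difference of R848 over Mock (vertical axis) of the 4 genes in each strain under 6 ways of scaling, with a symbol for each scaling, with dashed lines at 2-fold. A scaling moves all genes of a strain by the same step, up to 1.25 in IFNAR-/-, and *Tlr2* in C57BL/6 is the point that crosses 0, at -0.07. In IFNAR-/- the *Gapdh* squares cover the circles of the deposited values.

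Ratios between the receptor genes within a column do not depend on any housekeeping gene. They also carry the efficiency of each assay, so their change between columns was read rather than their size. *Tlr4* over *Tlr2* had log2 ratios of -2.90 with R848 and -2.00 with Mock in TLR7-/-, -1.90 and -2.00 in IFNAR-/-, and 1.85 and -2.30 in C57BL/6. The 3 Mock columns and IFNAR-/- with R848 lay within 0.40 of each other, while C57BL/6 with R848 stood 3.75 above the next. *Tlr1* over *Tlr2* had ratios of -0.50 with R848 and -1.30 with Mock in TLR7-/-, -0.20 and -1.30 in IFNAR-/-, and 3.05 and 0.35 in C57BL/6. Here C57BL/6 was higher under both treatments. *Tlr6* over *Tlr2* changed by -0.20 in TLR7-/-, 0.40 in IFNAR-/- and 1.75 in C57BL/6. *Tlr1* over *Tlr6*, the neighbouring genes, had ratios of 4.70 with R848 and 3.70 with Mock in TLR7-/-, 5.00 and 4.30 in IFNAR-/-, and 6.55 and 5.60 in C57BL/6. Its change with R848 was 1.00, 0.70 and 0.95 in the same order of strains, the narrowest spread of the pairs computed. In IFNAR-/- and C57BL/6 the changes of each pair with *Tlr6* rest on Mock readings 0.1 and 0.9 cycles from the cap.

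**Figure D4:**
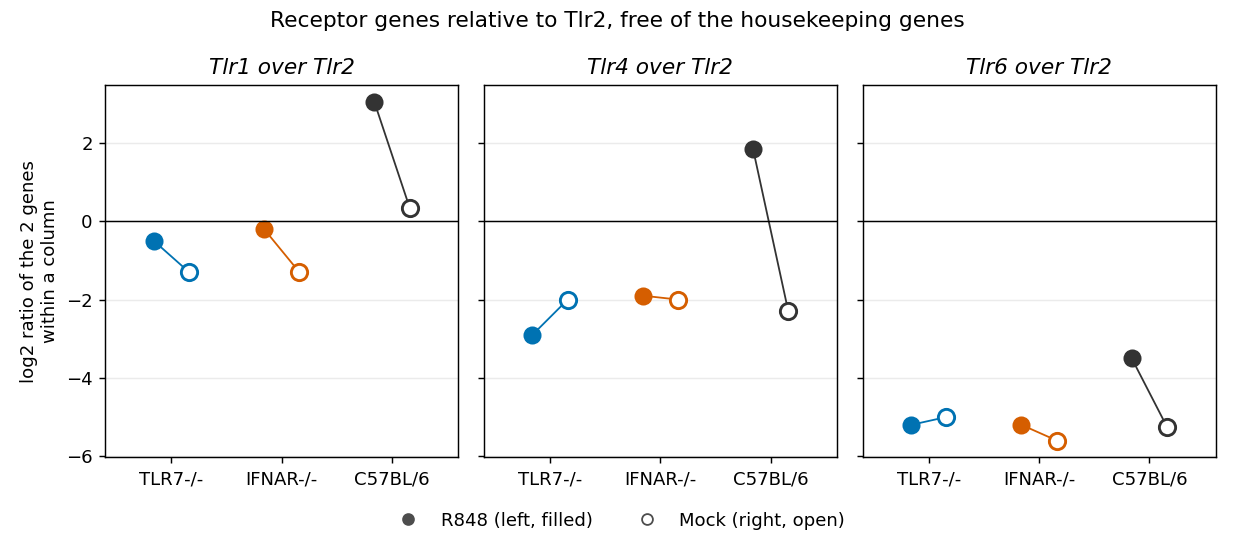
Log2 ratio of *Tlr1*, *Tlr4* and *Tlr6* to *Tlr2* within a column (vertical axis) in each strain, R848 filled on the left and Mock open on the right. C57BL/6 with R848 is the highest point in all 3 panels, at 3.05, 1.85 and -3.50.

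Between R848 columns, both deficient strains had more *Tlr2* and less *Tlr1* and *Tlr4* than C57BL/6. In TLR7-/- with R848, *Tlr2* was 2.04 higher than in C57BL/6 with R848, *Tlr1* was lower (-1.51), *Tlr4* was lower (-2.71), and *Tlr6* differed by 0.34. In IFNAR-/- with R848 the same differences were 1.84 for *Tlr2*, -1.41 for *Tlr1*, -1.91 for *Tlr4* and 0.14 for *Tlr6*. That is 1 of 5 genes at least 2-fold higher in each, beside 29.8% of the plate in each, and 2 of 5 at least 2-fold lower, beside 14.3% for TLR7-/- and 15.5% for IFNAR-/-. Both comparisons use the same C57BL/6 column. Over the scalings the signs of *Tlr1*, *Tlr2* and *Tlr4* were the same, and *Tlr6* ran from -0.15 to 0.60 for TLR7-/- and from -0.30 to 0.30 for IFNAR-/-. The median pathway gene was 0.49 higher in TLR7-/- and 0.44 higher in IFNAR-/-.

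Between Mock columns as deposited, TLR7-/- had the highest level of *Tlr1*, *Tlr2*, *Tlr4* and *Tlr6*. For *Tlr1* the lead over C57BL/6 was small, and its sign depended on the scaling. In TLR7-/- Mock, *Tlr2*, *Tlr4* and *Tlr6* were 2.00, 2.30 and 2.25 higher than in C57BL/6 Mock and *Tlr1* was 0.35 higher, while the median pathway gene was 1.05 higher. Thus 3 of 5 genes were at least 2-fold higher, beside 48.8% of the plate, and 0 were 2-fold lower, beside 4.76%. Centred on the median gene, the 3 were 0.95, 1.25 and 1.20 higher and *Tlr1* was lower (-0.70), and with all 5 housekeeping genes *Tlr1* was at -0.08. In IFNAR-/- Mock, *Tlr1* was lower than in C57BL/6 Mock (-1.38), and *Tlr2*, *Tlr4* and *Tlr6* differed by 0.27, 0.57 and -0.08, the last running from -0.25 to 0.27 over the scalings. That is 1 of 5 genes at least 2-fold lower, beside 31.0% of the plate, and 0 higher, beside 4.76%. In TLR7-/- Mock, the levels were 1.73 higher than in IFNAR-/- Mock for *Tlr1*, *Tlr2* and *Tlr4* and 2.33 higher for *Tlr6*, beside 1.63 for the median pathway gene. The response of *Tlr4* in C57BL/6 thus joins the lowest Mock level to the highest R848 level. Taken against TLR7-/- Mock in place of its own Mock, C57BL/6 with R848 was 2.28 higher for *Tlr4* and 2.78 higher for *Tlr1*, lower for *Tlr2* (-1.57) and at -0.07 for *Tlr6*.

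The partners of TLR4 in LPS recognition were listed together with MD-1 and RP105, and 3 of these 4 genes are on the plate. *Ly96*, encoding MD-2, had a delta-Ct of 6.33 with R848 and 6.30 with Mock in TLR7-/-, 5.83 and 6.73 in IFNAR-/-, and 5.82 and 5.70 in C57BL/6. Its responses of -0.03, 0.90 and -0.12 were all within 2-fold. The log2 ratio of *Tlr4* to *Ly96* changed with R848 by -0.40 in TLR7-/-, 1.20 in IFNAR-/- and 4.70 in C57BL/6. *Ly86*, encoding MD-1, which pairs with RP105 on B cells, had responses of -0.03, 0.60 and -0.47. *Cd14*, the LPS co-receptor, was at least 662-fold higher with R848 in TLR7-/-, at least 111-fold lower in IFNAR-/- and 2.19-fold higher in C57BL/6. It was at the cap in TLR7-/- Mock and in IFNAR-/- R848, and it lies in the first 4 wells of the plate, in which several genes of the deficient strains gave readings far from C57BL/6. *Cd180*, encoding RP105, is not on the plate.

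The adaptors that carry the signal of these receptors had 0 of 4 genes at least 2-fold higher in TLR7-/-, 4 in IFNAR-/- and 4 in C57BL/6. Of all pathway genes, 4.76%, 53.6% and 38.1% were, in the same order of strains. These plate shares also stand beside the counts of kinases and inhibitors below. The adaptor medians were 0.22, 3.25 and 2.33, against 0.07, 1.25 and 0.41 for all pathway genes. *Myd88*, encoding the common adaptor, had responses of 0.17 in TLR7-/-, 3.20 in IFNAR-/- and 2.48 in C57BL/6. *Tirap*, encoding the bridge to TLR2 and TLR4, had 0.67, 3.30 and 2.38. *Ticam2*, encoding TRAM, which serves TLR4, had 0.27, 3.10 and 1.33, and *Ticam1*, encoding TRIF, had 0.17, 3.70 and 2.28. Whereas *Tlr4* had the lower value in IFNAR-/- than in C57BL/6, these 4 genes had the higher one as deposited. After centring, *Myd88* turned to the lower (-0.12) and *Tirap* stood at 0.08, so the direction of both is not settled. None of these differences was tested. Of the proximal kinases and the ubiquitin ligase, 0 of 4 were 2-fold higher in TLR7-/-, 2 in IFNAR-/- (*Irak2* and *Traf6*) and 1 in C57BL/6 (*Traf6*), with *Irak1* open in all 3. Of the inhibitors, 0 of 4 were 2-fold higher in TLR7-/- and 3 in IFNAR-/- (*Tollip*, *Tnfaip3* and *Il10*). The same 3 were 2-fold higher in C57BL/6, where *Nfkbia* was 2-fold lower, as were 13.1% of the plate.

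Genes that surface TLRs are known to act on, and proteins reported as their ligands, gave a mixed picture. Of 6 effector genes, 1 was at least 2-fold higher in TLR7-/- (*Ptgs2*), 5 in IFNAR-/- and 0 in C57BL/6. The plate shares were 4.76%, 53.6% and 38.1%. The 5 in IFNAR-/- include *Ccl2*, which lies in the first 4 wells and was 43.1-fold lower in TLR7-/-. In C57BL/6 the direction of *Ptgs2* was open, with Mock at the cap. In IFNAR-/-, *Tnf* had a response of 3.90 and *Cxcl10* of 5.50, and in C57BL/6 they had 0.43 and -0.27. In C57BL/6, where *Tlr4* was 23.9-fold higher, *Il6* was 2.17-fold lower, on late readings. Of 3 endogenous ligands, *Hmgb1*, a chromatin protein reported to signal through TLR4 and TLR2 when released, had responses of 0.37 in TLR7-/-, 0.60 in IFNAR-/- and 4.33 in C57BL/6. *Hspd1*, encoding a chaperone, had 0.07, -0.80 and -0.62. *Hspa1a*, encoding another chaperone, was 2-fold lower in TLR7-/-, open in IFNAR-/- and at least 1.13-fold higher in C57BL/6, where Mock was at the cap.

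Likeness of response was measured as the root mean square difference over the 3 strains, among 68 genes read below the cap in all columns. The nearest to *Tlr4* was *Hmgb1*, at 0.99, followed by *Traf6*, encoding a ubiquitin ligase, at 1.02, farther off than the nearest gene of *Tlr1*, *Tlr2* or *Tlr6*. For *Tlr1* the nearest were *Tollip*, encoding an inhibitor of TLR signalling (0.37), *Tirap* (0.57) and *Nfkb1*, encoding an NF-kB subunit (0.65). For *Tlr2* they were *Rela*, encoding an NF-kB subunit (0.13), *Il1r1*, encoding the interleukin-1 receptor (0.17), and *Ikbkb*, encoding an NF-kB-activating kinase (0.23). For *Tlr6* they were *Mapk8*, encoding the kinase JNK1 (0.23), *Tlr7* (0.33) and *Tnfaip3*, encoding the inhibitor A20 (0.36). Among the surface receptors themselves, *Tlr1* and *Tlr6* were the closest pair (0.89) and *Tlr2* and *Tlr4* the farthest (2.45). With 3 strains and no replicate, this is a description of 3 values per gene.

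Plate genes listed for cell types were summed per column, though none of them is a defining marker. *Ccl2* and *Il1b* are also among the effector genes above, so the myeloid sum is not a measure of cell content. The summed level of 5 myeloid genes outside the receptors (*Cd14*, *Clec4e*, *Ccl2*, *Il1b* and *Ly96*) was 9.59% of the reference level with R848 and 12.6% with Mock in TLR7-/-, 11.3% and 3.29% in IFNAR-/-, and 7.04% and 4.89% in C57BL/6. Without *Cd14* and *Ccl2*, which lie in the first 4 wells, the sums were 7.61% and 8.73% in TLR7-/-, 9.31% and 2.92% in IFNAR-/-, and 3.86% and 3.37% in C57BL/6. The 5 genes did not move as 1. *Clec4e*, encoding the macrophage receptor Mincle, had responses of 0.07 in TLR7-/-, 3.60 in IFNAR-/- and 1.48 in C57BL/6, and *Il1b*, encoding a cytokine, had -0.43, 1.10 and 0.33. *Ccl2*, encoding a monocyte chemokine, had -5.43 in TLR7-/-, was at least 111-fold higher in IFNAR-/- and had -0.12 in C57BL/6, and *Cd14* and *Ly96* are given above. The sum was thus higher with R848 in IFNAR-/-, where *Tlr1*, *Tlr2*, *Tlr4* and *Tlr6* were all higher, and its part in those responses was not tested. In C57BL/6 both sums were higher with R848 too, the sum without the first 4 wells by 0.49 percentage points. That smaller sum has no settled direction, because the scalings move all C57BL/6 genes by -0.50 to 0.52. The part of both sums in the *Tlr4* response was not tested. The summed level of 3 genes listed for B cells (*Btk*, *Ly86* and *Cd86*) was 19.3% with R848 and 23.4% with Mock in TLR7-/-. It was 19.2% and 12.3% in IFNAR-/-, and 17.1% and 27.8% in C57BL/6. Without *Btk*, in the first 4 wells, it was 15.1% and 22.0% in C57BL/6. The summed level of 3 T and NK cell products (*Il2*, *Ifng* and *Lta*) was 2.08% and 2.02% in TLR7-/-, 0.762% and 0.637% in IFNAR-/-, and 0.531% and 1.22% in C57BL/6. The part of these sums in the responses was likewise not tested. *Btk* was at the cap in all 4 columns of the deficient strains.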

How the data were processed

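Spleen RNA, pooled from 3 mice per sample, was read with a TLR pathway PCR plate, per the labels' protocols. The deposited tables, 1 per strain, hold delta-Ct values on a log2 scale and the authors' ratio (fold difference) between treatments. Per the series' design text, Ct values beyond 35 were set to 35 and 3 reference genes were used, and the C57BL/6 values summarise 2 experiments. The authors' deposited fold differences were recomputed for 89 of 89 genes in each table, within 0.01 of a ratio or, where larger, within 0.01 cycles. Another 6 per-sample columns (linear values of delta-Ct) hold the same values and were not used. Tables were mapped to strains by name and columns to treatments by header.

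Responses were delta-Ct in Mock minus delta-Ct in R848. Genes at the cap in both columns, or at it on the side that leaves no bound, were called open. A call was a 2-fold difference. With 1 value per group, no test was run, and the precision of a reading is unknown. The 5 members are always named. Other names come from lists for receptors, partners, adaptors, inhibitors, ligands, effectors and cell types, and from the 3 genes nearest to each member by root mean square difference. Members and lists were chosen with earlier results of these data known. As alternatives, levels were scaled to single reference genes, to all 5 housekeeping genes or to the median pathway gene, or computed without capped readings, with other thresholds and another Mock column. For responses, the median pathway gene was taken with open genes at their deposited values. For levels between strains, it was taken over the genes below the cap in both columns compared. The ratios to *Tlr2* and the marker sum without the first 4 wells were added after seeing the data. The calling of directions was also run on simulated data, as a check of the procedure only. Because the precision of a reading is unknown, that run cannot show how reliable a 2-fold call is here. No call rests on it. Promoter windows and motif shares come from RefSeq's table (GRCm38.p6), with no genome at hand, and protein sequences were not analysed here. Python 3.11.15, numpy 2.4.6, pandas 2.3.3 and matplotlib 3.10.9 were used.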

Additional observations from a re-analysis of the deposited data

Results flagged for a closer look

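The response of *Tlr4* to R848 differed in size between strains. It was within 2-fold in TLR7-/- (log2 difference -0.43) and higher with R848 in C57BL/6 (4.58), a difference of -5.01 between the strains. *Tlr4* was also higher with R848 in IFNAR-/- (2.10), which gives a difference of -2.53 between TLR7-/- and IFNAR-/-. That was number 15 from the lowest of 69 genes and ran from -2.80 to -1.35 over the scalings. The same difference was -3.03 for *Myd88* and -3.53 for *Ticam1*. Each deficient strain had 1 pooled sample per treatment and C57BL/6 a mean of 2 experiments, and the difference was not tested. The TLR7-/- value, from -0.60 to -0.30 over the scalings, is within 2-fold under each of them.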

How the results depend on the processing

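Directions of *Tlr1*, *Tlr4* and *Tlr6* were the same in each strain under the 6 scalings, and *Tlr2* turned to -0.07 in C57BL/6 with all 5 housekeeping genes. In TLR7-/- the median response of the 5 genes, 0.27 as reported, was 0.10 with *Hprt1*, 0.40 with *Hsp90ab1* and 0.30 with *Gapdh* alone, 0.16 with 5 housekeeping genes, 0.20 after centring, -0.20 with *Tlr2* as reference and 0.37 without capped readings. In IFNAR-/- it was 2.10, and 1.70, 2.50, 1.48, 0.85, 0.10 and 2.25 with *Hprt1*, *Hsp90ab1*, 5 housekeeping genes, centring, *Tlr2* as reference and no capped readings. In C57BL/6 it was 2.18, and 1.90, 2.70, 1.95, 1.68, 1.77, 1.75 and 2.66 with *Hprt1*, *Hsp90ab1*, *Gapdh*, 5 housekeeping genes, centring, *Tlr2* as reference and no capped readings. With TLR7-/- Mock as the control, the median was 0.27 in IFNAR-/- and -0.07 in C57BL/6, where *Tlr6* was likewise at -0.07. The genes at least 2-fold higher numbered 0 in TLR7-/- with *Tlr2* as reference or at 3-fold. In IFNAR-/- they numbered 2 after centring (open genes included), 1 with *Tlr2* as reference and 1 with TLR7-/- Mock as the control. With that control 2 genes were 2-fold higher in C57BL/6, in place of 3, and 1, *Tlr2*, was 2-fold lower. *Tlr2* as reference was chosen after seeing the data. A scaling shifts all genes of a strain alike, the medians without capped readings leave out *Tlr5*, and the count at 3-fold differs by its threshold.

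No paired analysis was possible because the C57BL/6 experiments enter only as their mean. Each experiment alone, and leaving one out, was not run for the same reason. Capped readings limit *Tlr5* in the 5 columns whose cap other genes share, with C57BL/6 R848 not settled, and make *Tlr6* in IFNAR-/- Mock and C57BL/6 Mock uncertain. A gene capped in 1 of the C57BL/6 experiments cannot be recognised in the mean.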
